A study of Saccharomyces cerevisiae with 2 samples.

Results

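The transcripts described here are those of the 9 budding yeast cyclins that bind the kinase Cdc28 and of SIC1, an inhibitor of that kinase, 10 genes in all among the 6868 features of the array table. They were taken by systematic name, each name carried the symbol given here in the reference gene table, and none was listed at exactly 0 on either array. The groups were 3 G1 cyclins (CLN1, CLN2, CLN3), 6 B-type cyclins (CLB1 to CLB6) and SIC1.

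The cells were Saccharomyces cerevisiae BY4742, a haploid strain used in many laboratories and of alpha mating type, and the labels give every sample the genotype WT his3kan. They were grown with shaking at 30 C in synthetic complete medium. One culture sample was taken 60 min and one 30 min after NaCl was brought to 0.7 M, and each was set against unstressed cells of the same strain on a 2-colour NimbleGen array that tiles the yeast genome. There was 1 array per time, with salt cells in the same dye on both, so no value has a replicate error, no test was possible, and dye, time in culture and salt cannot be told apart. The culture was not stated to be synchronised.

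Cyclins are the activating subunits of cyclin-dependent kinases, and most are made and destroyed once per cell cycle. In budding yeast Cln3 starts the late G1 transcription wave driven by the factors SBF and MBF, Cln1 and Cln2 carry the cell through Start and into budding, Clb5 and Clb6 fire replication origins, Clb3 and Clb4 act in spindle formation, and Clb1 and Clb2 drive mitosis. Sic1 holds the Clb kinases inactive in G1 until it is phosphorylated and destroyed through the ubiquitin ligase SCF with Cdc4. Osmotic stress is known to delay the cell cycle for a time through the kinase Hog1, which also phosphorylates Sic1. These arrays measured transcripts and none of these protein events.

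Each value is the log ratio that the authors deposited, taken as log2 and as salt over unstressed. Neither the base nor the direction is stated. The direction was taken from 10 salt-induced reporter genes with known values (STL1, GRE1, SIP18, ALD3, CTT1, GPD1, GPP2, ENA1, HSP12 and DDR2), all above 0, with medians of 3.82 at 60 min and 5.69 at 30 min. "Higher" and "lower" swap throughout if the ratio runs the other way, whereas a change of sign between the arrays does not depend on it. Both arrays have a median of 0 over all features, so a value is relative to the other transcripts. A gene was counted as higher or lower when it was at least 2-fold from 0, which is a log2 ratio of 1 or more in size. Fewer cells in the phase that makes a transcript and less transcript per cell cannot be told apart in these values.

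Most of the cyclin transcripts were lower at 30 min, and none of the 10 genes was 2-fold from its unstressed level at 60 min. At 60 min 0 of 10 were at least 2-fold lower and 0 of 10 at least 2-fold higher, where 4.32% and 6.67% of all features were. These counts are near those shares, since 6113 of the 6868 features lay within 2-fold of 0 on that array. At 30 min 7 of 10 were at least 2-fold lower, where 17.3% of all features were, and none was at least 2-fold higher, where 15.8% of all features were. The median of the 10 genes was 0.12 at 60 min and -1.46 at 30 min, against 0 for all features at each time. The spread over features was smaller on the later array (SD 0.71 at 60 min and 1.33 at 30 min). With the 60 min array stretched to the spread of the 30 min array, 2 of the 10, CLB6 and CLN1, were at least 2-fold higher, where 15.9% of all features were lower and 15.7% higher.

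**Figure D1:**
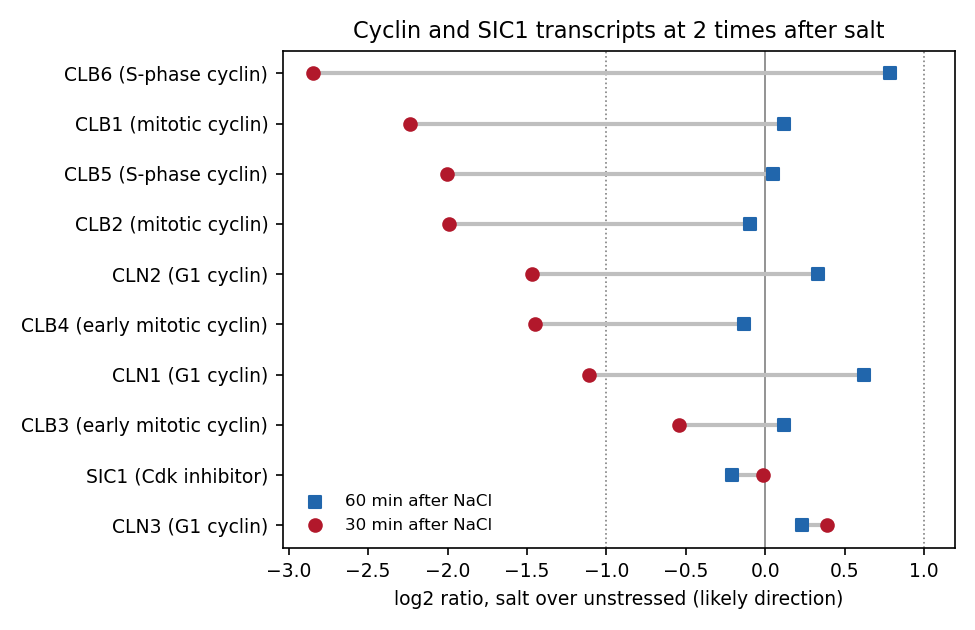
Log2 ratio of each gene (horizontal axis) at 60 min (blue squares) and 30 min (red circles), 1 array each, so there are no error bars. Genes are ordered by the 30 min value, and dotted lines mark 2-fold. All 10 squares lie inside the dotted lines, from -0.21 to 0.78, while 7 circles lie left of -1.

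Among the 10 genes, the largest change between the times was that of CLB6, which with CLB5 makes up the S-phase cyclins. CLB6 (YGR109C, right arm of chromosome VII) had a log2 ratio of 0.78 at 60 min, against -2.84 at 30 min, or 1.72-fold higher and 7.18-fold lower than in unstressed cells. It was the highest of the 10 genes on the later array and the lowest on the earlier one. CLB5 (YPR120C, right arm of chromosome XVI), which fires both early and late origins, had 0.046 at 60 min and -2.01 at 30 min. It was thus 1.03-fold higher than in unstressed cells on the later array and 4.02-fold lower on the earlier one.

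Over all features, 90.2% had a lower value than CLB6 at 60 min and 2.55% did at 30 min. Its 60 min minus 30 min difference was 3.63, the 8th highest of the 6868 features. The 10 highest differences were singled out after their values were seen. Those of the ribosome biogenesis genes SYO1, NSR1, NOG1, BRX1 and NOC2 belonged to features still below 0 at 60 min, for example -0.72 for SYO1. So did those of the tRNA methyltransferase gene TRM11 and of the mating-type endonuclease gene HO. HO, which had -1.39 at 60 min, is itself a late G1 target of SBF. CLB6 shared a positive 60 min value with RNR1, the large subunit of ribonucleotide reductase (0.73 at 60 min and -3.12 at 30 min), and NRM1, the co-repressor of MBF (0.23 at 60 min and -3.36 at 30 min). The CLB5 difference was 2.05, which was above that of 96.9% of features.

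The mitotic cyclins CLB1 and CLB2, a pair of paralogs that drive entry into and passage through mitosis, had close values on each array. CLB1 (YGR108W, right arm of chromosome VII) had 0.12 at 60 min and -2.24 at 30 min, where it was 4.72-fold lower. CLB2 (YPR119W, right arm of chromosome XVI) had -0.095 at 60 min and -1.99 at 30 min, where it was 3.98-fold lower. The gap between them, CLB2 minus CLB1, was -0.21 at 60 min and 0.25 at 30 min. Their 60 min minus 30 min differences of 2.36 (CLB1) and 1.90 (CLB2) were above those of 98.0% and 96.1% of features.

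The early mitotic cyclins CLB3 and CLB4, which act in spindle formation, were less far from 0 on the earlier array. CLB4 (YLR210W, right arm of chromosome XII) had -0.14 at 60 min and -1.45 at 30 min, a level 2.74-fold lower at 30 min. CLB3 (YDL155W, left arm of chromosome IV) had 0.12 at 60 min and -0.55 at 30 min. CLB3 was the only B-type cyclin that did not reach 2-fold at 30 min, and CLB4 minus CLB3 was -0.26 at 60 min and -0.91 at 30 min.

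The G1 cyclins differed among themselves. CLN1 (YMR199W, right arm of chromosome XIII) had 0.62 at 60 min and -1.11 at 30 min, and its paralog CLN2 (YPL256C, left arm of chromosome XVI) had 0.33 at 60 min and -1.47 at 30 min. Both were on opposite sides of 0 at the 2 times, with differences of 1.73 for CLN1 and 1.80 for CLN2. CLN3 (YAL040C, left arm of chromosome I), the upstream G1 cyclin, had 0.23 at 60 min and 0.39 at 30 min. It was the only one of the 10 genes above 0 at 30 min, where 66.9% of features had a lower value.

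SIC1 (YLR079W, right arm of chromosome XII), the inhibitor of Clb-Cdc28 kinases, was close to its unstressed level on both arrays. Its value was -0.21 at 60 min and -0.013 at 30 min, or 1.16-fold and 1.01-fold lower. Its difference of -0.20 and the CLN3 difference of -0.16 were the only ones of the 10 below 0. With the 60 min array stretched to the spread of the 30 min array the CLN3 difference was 0.041, so its direction depends on the scale of the arrays.

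Without replicates the order of close genes has no support. At 30 min CLB5 and CLB2 were 0.015 apart and CLN2 and CLB4 were 0.017 apart, while the step between CLB6 and CLB1 was 0.61. At 60 min the 10 values spanned -0.21 to 0.78, and CLB1 and CLB3 were both at 0.12. A rough view of the size that a feature without a transcript can reach comes from marker genes. The 4 are usually deleted in this strain, in whole or in part, which was not checked here. The value of LEU2 was -0.77 at 60 min and -2.22 at 30 min. URA3, by comparison, reached 0.20 on the later array and 1.56 on the earlier one, and LYS2 reached 0.45 and 0.55. HIS3 was listed at 0 at 60 min and had 0.22 at 30 min, but it may be deleted only in part and so still give a transcript. The genotype label WT his3kan names this gene, and how HIS3 was changed was not checked here. The 30 min value of LEU2 was larger in size than those of 8 of the 10 genes, all but CLB6 and CLB1. Whether any of the 10 lies near background was not tested, since no intensity was used.

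The side of 0 was compared between the times. Over the 10 genes, 7 were above 0 at 60 min and 9 were below 0 at 30 min, where 49.4% and 49.6% of all features were. Of the 7 genes at least 2-fold lower at 30 min, 5 (CLN1, CLN2, CLB1, CLB5 and CLB6) were above 0 at 60 min, which is 71.4%. Of all 1186 features at least 2-fold lower at 30 min, 94 were above 0 at 60 min, which is 7.93%. By comparison, 0 of the 130 cytosolic ribosomal protein genes past 2-fold downwards at 30 min were above 0 at 60 min, and their median over all 131 was -0.65 at 60 min and -2.29 at 30 min. The median of the 60 min minus 30 min differences was 1.77 for the 10 genes and 0.001 for all features. At least 1 of log2 difference upwards was seen in 7 of the 10 and in 11.6% of all features, and at least 1 downwards in 0 of the 10 and in 8.85% of all features.

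The labels name the unstressed RNA differently on the 2 arrays, so each difference between the times also holds any difference between those RNAs, which cannot be told apart from the change in the salt cells. CLB5, CLB1, CLB3 and CLB2 were so near to 0 at 60 min that the side of 0 on which they fall has no support.

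**Figure D2:**
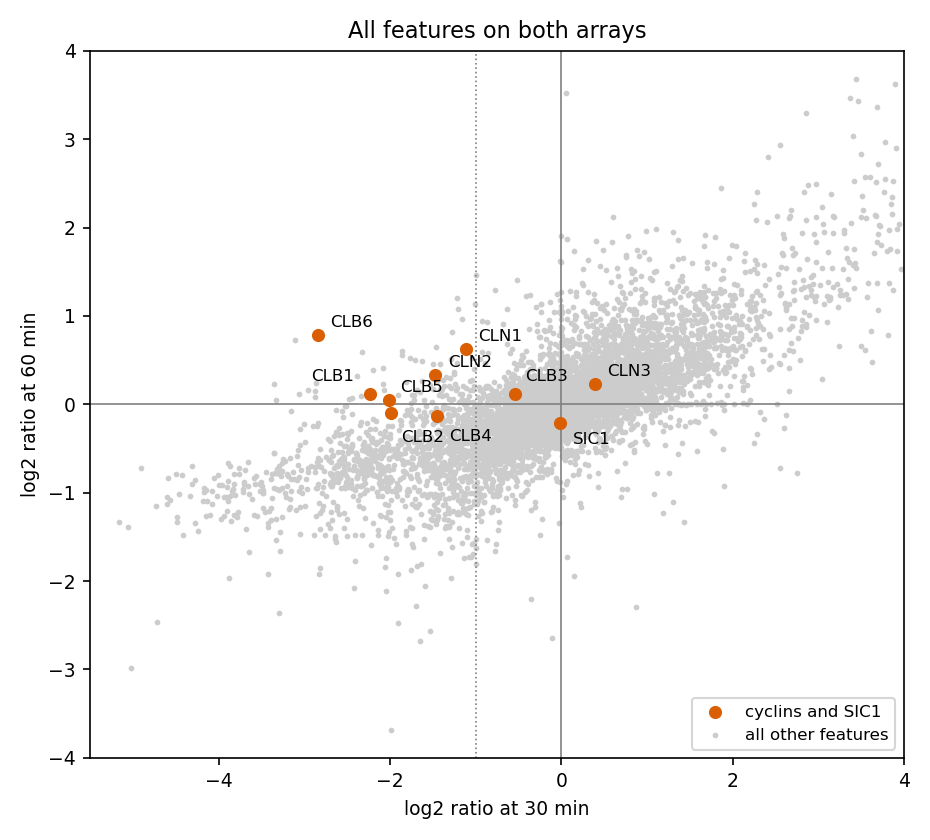
Log2 ratio at 60 min (vertical axis) against log2 ratio at 30 min (horizontal axis) for all features (grey) with the 10 genes in orange. The dotted line marks 2-fold lower at 30 min, and 64 features beyond 4 on either axis are not drawn. CLB6, CLB1, CLB5, CLN2 and CLN1 lie above 0 on the vertical axis and left of the dotted line, where 94 features lie in all, while CLN3 and SIC1 lie within the main cloud.

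The paralog pairs were compared within each array. CLN2 minus CLN1 was -0.29 at 60 min and -0.36 at 30 min on the deposited scale. For CLB5 and CLB6, CLB6 minus CLB5 was 0.74 at 60 min and -0.84 at 30 min, a reversal that no other pair showed at that size. No sequences were compared, and how far probes are shared between paralogs was not tested.

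Genome position was described because 4 of the 10 genes adjoin another of them. CLB1 and CLB6 are neighbours that point towards each other, and so are CLB2 and CLB5. No source used here says whether the array values were read by strand, so signal from the 3' ends of such neighbours cannot be told apart. The 16 other protein-coding neighbours of the 10 genes, all measured, had a median of 0.0092 at 60 min and -0.0079 at 30 min. Of all features, 6.67% were at least 2-fold higher and 4.32% lower at 60 min, and 15.8% higher and 17.3% lower at 30 min. The neighbour counts were near these shares. At 60 min 1 neighbour was at least 2-fold higher and 1 lower, and at 30 min 2 neighbours were higher and 3 were lower. Those lower at 30 min were MRI1, a methionine salvage gene next to CLB2, with -0.66 at 60 min and -1.49 at 30 min, the Ty element reading frame YGR109W-A next to CLB6, with -1.24 at 60 min and -1.22 at 30 min, and BBP1, a spindle pole body gene that shares the upstream region of CLN2, with 0.10 at 60 min and -1.34 at 30 min. EMP46, a cargo transport gene downstream of SIC1, had 1.13 at 60 min and 2.17 at 30 min, while SIC1 itself was near 0.

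The features with the most similar pair of values were found by Euclidean distance over the 2 arrays among 5262 features with a symbol. CLB6 stood nearly alone, with RNR1 the nearest at a distance of 0.28, followed by the mannosyltransferase gene MNN1 at 0.54, and only 1 feature lay within 0.5 of it. CLN1 was nearest to YHP1 (distance 0.12), a homeobox repressor of M/G1 genes, CLB2 to the kinesin gene CIN8 (0.036) and CLN2 to SPH1 (0.041), a gene of polarised growth. CLB1 was nearest to the ergosterol gene ERG25 (0.0076), and CLB5 to the cytochrome gene CYB5 (0.027). The replication initiation gene CDC45 was among the 3 nearest to both CLB1 and CLB5. For SIC1, CLN3, CLB3 and CLB4, 1627, 1478, 1083 and 300 features lay within 0.5, so their nearest features are not singled out by likeness. Within 0.5 of CLB2, CLN2, CLB5, CLB1 and CLN1 lay 112, 85, 68, 40 and 36 features. The features named for these genes are thus drawn from many that lay near.

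Cyclins of other kinases were set beside the Cdc28 cyclins. Of the 9 Cdc28 cyclins none was 2-fold from 0 at 60 min and 7 were lower at 30 min (medians 0.12 at 60 min and -1.47 at 30 min). Of the 10 cyclins of Pho85, a kinase of phosphate, glycogen and polarity control, none was 2-fold from 0 at 60 min, and 1 was lower and 2 were higher at 30 min (medians 0.24 at 60 min and 0.41 at 30 min). The Pho85 counts are near the shares over all features. These were 4.32% lower and 6.67% higher at 60 min, and 17.3% lower and 15.8% higher at 30 min. The lower Pho85 cyclin was PCL2, which is made in late G1 like CLN1 and CLN2, with 0.34 at 60 min and -1.25 at 30 min. PCL1, its relative in late G1, had 0.41 at 60 min and -0.19 at 30 min, and PCL9, made at the M/G1 boundary, had -0.11 at 60 min and -0.99 at 30 min.

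Among the other Pho85 cyclins, PCL8 had 0.51 at 60 min and 1.51 at 30 min, and PCL5, a cyclin for turnover of the factor Gcn4, had 0.78 at 60 min and 1.25 at 30 min. PCL10, which with PCL8 directs Pho85 to glycogen synthase, had 0.18 at 60 min and 0.45 at 30 min. PCL6 had 0.11 at 60 min and 0.67 at 30 min, PCL7 had 0.075 and 0.64 at these times, PHO80 had 0.31 and 0.37, and CLG1 had -0.64 and -0.27. The cyclins of the transcription kinases have no cell cycle role of the Cdc28 kind. SSN8 of the Mediator kinase had 0.22 at 60 min and 1.02 at 30 min, CCL1 of TFIIH had -0.055 and 0.40, CTK2 had -0.13 and -0.59, and BUR2 had -0.13 and -0.32.

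**Figure D3:**
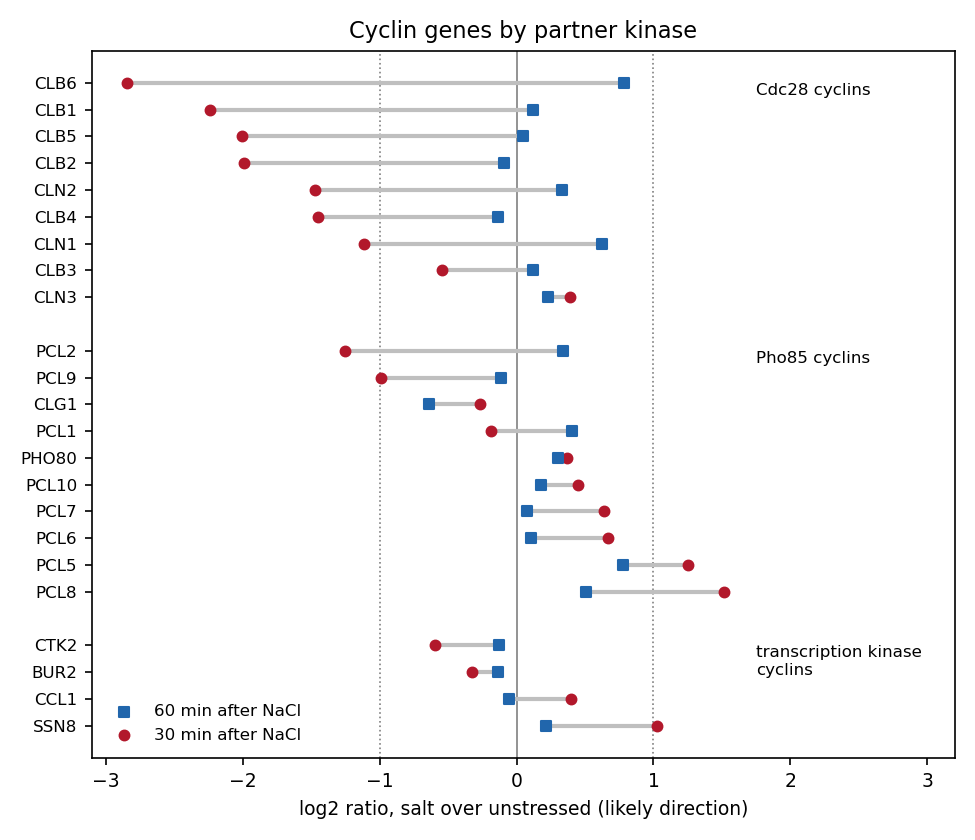
Log2 ratio (horizontal axis) of the cyclins of Cdc28, of Pho85 and of the transcription kinases at 60 min (blue squares) and 30 min (red circles), 1 array each. Dotted lines mark 2-fold. The 7 circles left of -1 in the top group are matched by 1, PCL2, in the middle group and by none in the bottom group.

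Subunits and regulators of the Cdc28 kinase were mostly nearer to 0. CDC28 itself had 0.17 at 60 min and 0.39 at 30 min, and its partners CKS1 and CAK1 had -0.26 and -0.020 at 60 min, against -0.83 and 0.71 at 30 min. Of 8 genes that place or control the inhibitory phosphate on Cdc28, none was 2-fold from 0 at 60 min. That is near the shares over all features at that time, 4.32% lower and 6.67% higher. At 30 min 4 were lower, against 17.3% of all features (medians 0.098 at 60 min and -1.02 at 30 min). These were GIN4 (-1.74 at 30 min), KCC4 (-1.42), HSL1 (-1.39) and the polo kinase CDC5 (-1.19). At 60 min GIN4 had 0.10, KCC4 0.18, HSL1 0.17 and CDC5 0.021, so near to 0 that their side of 0 has no support. The kinase gene SWE1 had 0.20 at 60 min and -0.85 at 30 min, and its opposing phosphatase MIH1 had 0.092 at 60 min and 0.10 at 30 min. FAR1, the pheromone-responsive inhibitor of Cln kinases, had -0.43 at 60 min and -2.99 at 30 min, unlike SIC1, and CDC6, which also binds Clb kinases, had 0.21 at 60 min and -0.72 at 30 min.

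The late G1 transcription programme, which includes CLN1, CLN2, CLB5 and CLB6, was also lower at 30 min in most of its other genes. Of 28 SBF and MBF target genes listed, none was 2-fold from 0 at 60 min, where 4.32% of all features were lower and 6.67% higher. At 30 min 18 were lower and none higher, against 17.3% and 15.8% of all features (medians 0.14 at 60 min and -1.47 at 30 min). The lowest at 30 min were RNR1 (-3.12) and SVS1 (-3.06), a cell wall gene, and the highest were the replication protein gene RFA1 (0.10) and the primase gene PRI1 (0.0086). At 60 min RNR1 (0.73) and the checkpoint kinase gene DUN1 (0.64) were highest, and GIC2 (-0.75), an effector of Cdc42, and the thymidylate synthase gene CDC21 (-0.41) were lowest. Of the 18 genes lower at 30 min, 8 were above 0 at 60 min. Some of these, such as SVS1 with 0.11, were so near to 0 that their side of 0 has no support. HO, another SBF target, was not in the list. Its values of -1.39 at 60 min and -5.06 at 30 min lay below those of all 28.

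The factors that drive this programme had a median nearer to 0 at 30 min. Of 10 G1/S transcription regulators none was 2-fold from 0 at 60 min, and 2 were lower and 1 higher at 30 min (medians 0.15 at 60 min and -0.12 at 30 min). The counts are near the shares over all features. These were 4.32% lower and 6.67% higher at 60 min, and 17.3% lower and 15.8% higher at 30 min. The SBF and MBF DNA-binding subunits SWI4 and MBP1 had 0.43 and 0.058 at 60 min, against 0.090 and 0.22 at 30 min. Their shared subunit SWI6 had -0.24 at 60 min and -0.79 at 30 min. The repressor WHI5, which Cln3 kinase releases from SBF, had -0.72 at 60 min and -0.86 at 30 min.

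The lower regulators at 30 min were NRM1, itself an MBF target, and STB1, which binds Swi6, with -0.72 at 60 min and -1.45 at 30 min. The higher one was XBP1, a stress-induced repressor known to act on CLN1, with 0.97 at 60 min and 2.69 at 30 min. The co-activators MSA1 and MSA2 had 0.14 and 0.68 at 60 min, against -0.18 and -0.070 at 30 min. BCK2, which activates G1/S genes apart from Cln3, had 0.16 at 60 min and 0.13 at 30 min.

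Genes expressed with CLB1 and CLB2 were less far from 0 than these cyclins at 30 min. Of 16 CLB2 cluster genes none was 2-fold from 0 at 60 min, where 4.32% of all features were lower and 6.67% higher. At 30 min 5 were lower, against 17.3% of all features (medians -0.091 at 60 min and -0.89 at 30 min). The lowest at 30 min were BUD4 (-1.68), a bud site gene, and ALK1 (-1.64), a haspin-like kinase gene, so CLB1 and CLB2 had lower values at that time than each of the 16. The highest at 60 min were BUD3 (0.27) and ALK1 (0.13), and the lowest were MOB1 (-0.66) and CDC20 (-0.65). Of 7 G2/M regulators, FKH1 (-0.067 at 60 min and -2.63 at 30 min) and YHP1 (0.52 at 60 min and -1.04 at 30 min) were lower at 30 min. That is 2 of 7, against 17.3% of all features. FKH2 and NDD1, which act with Mcm1 at CLB2 cluster promoters, had -0.14 and -0.045 at 60 min, against -0.83 and -0.53 at 30 min.

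The genes for destruction of cyclins and Sic1 were mostly within 2-fold. Of 15 genes of the anaphase-promoting complex and its activators, none was 2-fold from 0 at 60 min, and 1, the activator gene CDC20, was lower at 30 min (list medians 0.026 at 60 min and 0.21 at 30 min). CDH1, the activator that acts on Clb2 in G1, had 0.18 at 60 min and 0.51 at 30 min. None of 6 SCF ubiquitin ligase genes was 2-fold from 0 at either time (medians -0.075 at 60 min and 0.36 at 30 min), and CDC4, the adaptor for Sic1, had -0.11 at 60 min and -0.022 at 30 min. Of 11 mitotic exit genes, CDC5, BFA1 and NET1 were lower at 30 min and CDC15 was higher, with 0.15 at 60 min and 1.07 at 30 min. Beside the counts of these lists, 4.32% of all features were lower and 6.67% higher at 60 min. At 30 min 17.3% of all features were lower and 15.8% higher.

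Taking once each gene of the lists above from the Pho85 cyclins to the mitotic exit genes, transcription kinase cyclins included and the 10 cyclin and SIC1 genes left out, 111 genes were measured. At 60 min 0 were at least 2-fold lower or higher, where 4.32% and 6.67% of all features were. At 30 min 33 were at least 2-fold lower and 5 higher, against 17.3% and 15.8% of all features. The medians of the 111 were 0.031 at 60 min and -0.59 at 30 min. Of those 33, 17 (51.5%) were above 0 at 60 min, some of them, such as CDC5 with 0.021, too near to 0 for support. Of the 94 features that were at least 2-fold lower at 30 min and above 0 at 60 min, 5 were among the 10 genes, 17 were in the lists and 72 were in neither.

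**Figure D4:**
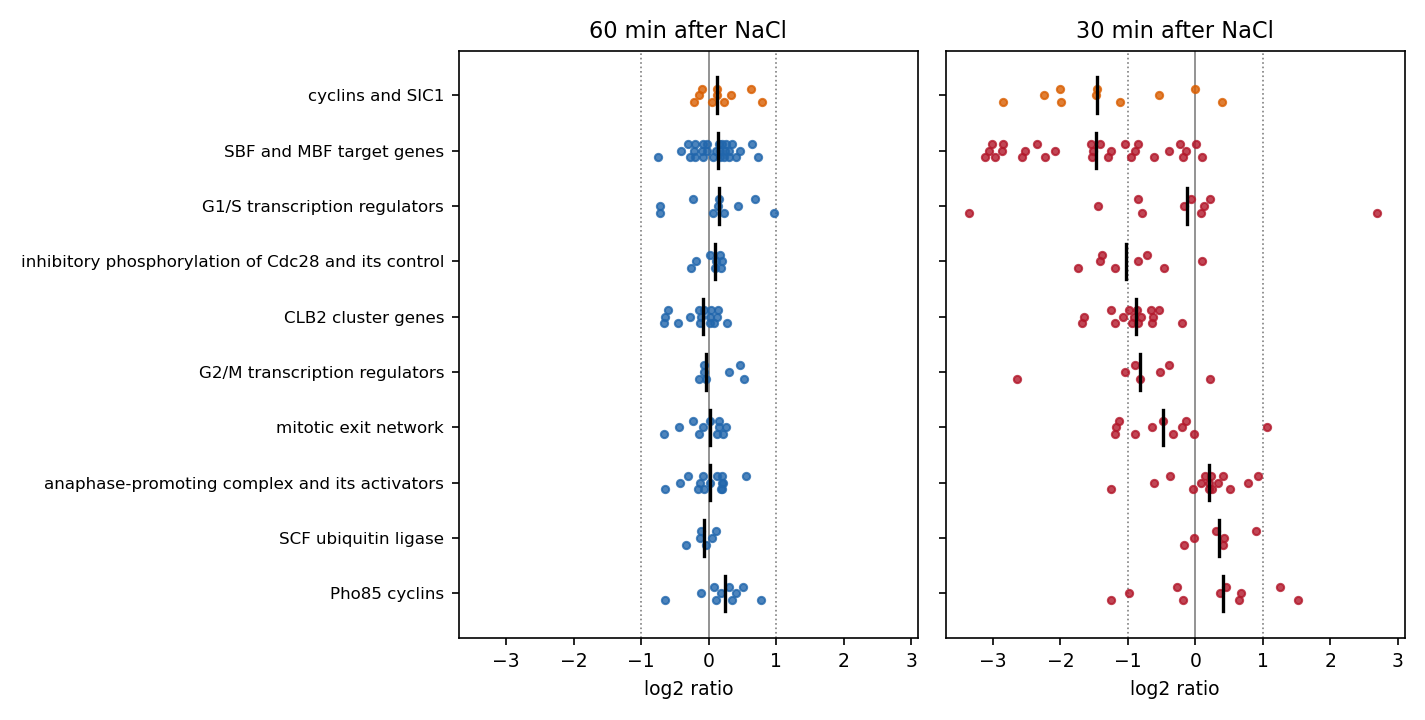
Log2 ratio (horizontal axes) of the 10 cyclin and SIC1 genes (orange, top) and of the genes of 9 cell cycle lists, at 60 min (left, blue) and 30 min (right, red). Each point is 1 gene on 1 array, black bars are medians over genes, and dotted lines mark 2-fold. At 30 min the medians of the 10 genes and of the SBF and MBF targets are -1.46 and -1.47, and at 60 min the medians lie between -0.091 and 0.24.

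The mating type given for the strain was set against marker genes, although a ratio cannot show absence. The alpha-specific genes passed 2-fold downwards in 2 of 4 cases at 60 min and in 4 of 4 at 30 min (medians -1.34 and -2.52). Of all features, 4.32% did at 60 min and 17.3% at 30 min. Of 7 a-specific genes 1, ASG7, passed 2-fold at 30 min, upwards (medians 0.11 at 60 min and 0.26 at 30 min). That is near the share over all features, 15.8% higher at 30 min.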

How the data were processed

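The authors deposited 1 log ratio per annotated feature and array, used here as log2. Scanner intensities were not used here, and no source used here gives the background correction, normalization, probe summary or build. Each value column has a median of 0, so the deposited log2 ratios appear centred. Base 2 and the direction salt over unstressed were assumed.

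Features were named through the reference gene table (assembly R64), which matched 5984 of the 6868. No coordinates are printed. With 1 array per time no test was made. Counts used a 2-fold size, and all 136 distinct genes of the 16 lists were measured. A further list is not reported here. The rule for named genes covered the 10 genes, every cyclin, G1/S regulator and marker locus, the 2 highest and 2 lowest of each list at each time, the 3 nearest features and the neighbours, and not all of these are printed. The members and lists were chosen with earlier results of these data known. The counting step was tested on simulated data. Scripts ran in Python 3.11.15 with pandas 2.3.3 and numpy 2.4.6. Alternatives were the scale, the centring, features listed at 0, the log base and a 1.5-fold size.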

Additional observations from a re-analysis of the deposited data

Results flagged for a closer look

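The values of 6 genes lay on opposite sides of 0 at 60 and 30 min, with 1 array per time, and the difference was not tested. The 60 min minus 30 min differences were 3.63 for CLB6, 2.36 for CLB1, 2.05 for CLB5, 1.80 for CLN2, 1.73 for CLN1 and 0.67 for CLB3. All 6 were below 0 at 30 min and above 0 at 60 min, but CLB5, CLB1 and CLB3 were so near to 0 at 60 min that their side of 0 has no support.

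The medians of 8 gene lists were also on opposite sides of 0, likewise untested, and all 8 were so near to 0 at 60 min that their side of 0 has no support. Those above 0 at 60 min and below it at 30 min had 60 min medians of 0.15 for the G1/S transcription regulators, 0.14 for the SBF and MBF targets, 0.098 for the control of inhibitory phosphorylation of Cdc28, 0.023 for the other kinase inhibitors and 0.021 for the mitotic exit network. Those below 0 at 60 min and above it at 30 min had -0.020 for the Cdc28 kinase core, -0.075 for the SCF ubiquitin ligase and -0.092 for the transcription kinase cyclins.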

How the results depend on the processing

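The count of 0 genes lower at 60 min was the same under all 7 alternatives, and that of 7 lower at 30 min under the 5 that touch the 30 min array or the size. The count of 7 genes above 0 at 60 min and that of 5 of the 7 lower ones above 0 were the same under the 3 recentrings. The other alternatives cannot turn the sign of a value on 1 array, although a change of scale can turn that of a difference between the times. The count higher at 60 min, 0 as deposited, was 2 with the 60 min array set to the SD or the MAD of the 30 min array, 2 at a 1.5-fold size and 1 with a natural log. The median at 60 min, 0.12 as deposited, was 0.23 (SD), 0.24 (MAD), 0.13 (centred on reference genes), 0.079 (centred on the mean) and 0.17 (natural log). The median at 30 min was -1.44 with either centring, -1.46 without features at 0, and -2.11 with a natural log. The median difference between the times, 1.77 as deposited, was 1.95 (SD), 1.95 (MAD), 1.76 (reference genes), 1.71 (mean) and 2.55 (natural log). Recentring moved no value of the 10 genes by more than 0.059. The sign turned in 4 of 180 recomputed values, for the CLN3 difference (0.041 with SD and 0.073 with MAD) and for SIC1 at 30 min (0.0037 and 0.0044 with the 2 centrings). Of 448 recomputed list counts 67 moved by over 1.5 times. At a 1.5-fold size 14 CLB2 cluster genes were lower at 30 min, against 5 at 2-fold. The alternatives on the median difference, the sign count and the count of genes above 0 at 60 min were chosen after seeing the data. No paired analysis was possible because there is 1 array per time and no test. The number of arrays limits the precision, and signal over background is unknown here.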
